A study of Mus musculus with 9 samples.

Results

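The subunits of oxidative phosphorylation were examined in retinal RNA-seq libraries from mice at postnatal day 28 (P28). The members were chosen by gene symbol alone, as the genes of the deposited table whose symbols begin like a mitochondrial-encoded subunit (mt-Nd, mt-Co, mt-Cytb, mt-Atp) or like a nuclear-encoded subunit of complexes I to V (Ndufa, Ndufb, Ndufc, Ndufs, Ndufv, Sdha to Sdhd, Uqcr, Cox4 to Cox8, Atp5). This rule took 110 of 22337 genes. They comprised 13 mitochondrial-encoded genes, 85 nuclear-encoded subunits, 10 assembly or regulatory genes that share the same prefixes (Ndufaf1 to Ndufaf8, Cox7a2l and Ndufa4l2) and 2 further copies (Cox5b-ps and Ndufb11b). Of the 85 nuclear-encoded subunits, 37 belong to complex I, 4 to complex II, 8 to complex III, 18 to complex IV and 18 to complex V, where Ndufa4 was counted with complex IV and the symbol Atp5o stood on 2 gene identifiers.

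The study asked whether vesicles released by mesenchymal stem cells protect the retina in retinitis pigmentosa. WT libraries came from untreated C57 BL/6J mice. The other libraries came from rd10 mice, which carry a mutation in Pde6b, the catalytic beta subunit of the rod phosphodiesterase, and lose their rods after the first weeks of life. Rd10 littermates received either normal saline (NS group) or extracellular vesicles from human umbilical cord mesenchymal stem cells (MSC-EVs group), 1 µl in both eyes at P14 and again at P21, and the sources describe the route both as intravenous and as into the vitreous. Each group held 3 libraries. The WT mice were bought from another supplier than the rd10 mice, so genotype, supplier and injection cannot be told apart between WT and either rd10 group.

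Oxidative phosphorylation is the last stage of respiration. Complexes I (NADH dehydrogenase) and II (succinate dehydrogenase) pass electrons to ubiquinone, complex III passes them on to cytochrome c and complex IV to oxygen, and complex V (ATP synthase) makes ATP from the proton gradient that complexes I, III and IV build. Complexes I, III, IV and V are assembled from subunits of both genomes, whereas complex II is wholly nuclear-encoded. Photoreceptors hold densely packed mitochondria in the ellipsoid of the inner segment, and the retina is among the most oxygen-demanding tissues. The mitochondrial genes are transcribed as long polycistronic RNAs that are then cut, and most of the resulting mRNAs are polyadenylated.

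Total counts ran from 19491717 to 62532343 per library, the deepest being MSC-EVs replicate 3. The scaling factors by the trimmed mean of M values (TMM) ran from 0.92 to 1.052, from 0.92 to 0.932 in WT and from 1.029 to 1.052 in the 6 rd10 libraries. No retinal marker was at 0, but neither was any lens, skeletal muscle, erythrocyte or pigment epithelium marker, so this alone does not identify the tissue. Pigment epithelium markers summed to 12.2 to 21.8 CPM (counts scaled to a fixed library total) in WT, 19.5 to 77.2 in NS and 18.7 to 43.4 in MSC-EVs. Lens markers summed to 30.2 to 132, 32.2 to 46.3 and 10.2 to 116 CPM. The summed level of 9 rod markers, among them Gnat1 and Pde6b, was 30000 to 32800 CPM in WT, 7320 to 9730 in NS and 7290 to 10500 in MSC-EVs. Müller glia markers summed to 3430 to 3700 CPM in WT, 3490 to 4400 in NS and 2860 to 3130 in MSC-EVs, gliosis markers to 59.5 to 67.9, 886 to 1230 and 1060 to 1710, and microglia markers to 65.0 to 68.4, 279 to 333 and 230 to 384. These are libraries of whole tissue, so fewer cells of a type and less RNA per cell cannot be told apart in any value below.

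The mitochondrial-encoded genes were by far the most abundant members when compared per length. In WT their median level was 2640 FPKM (fragments scaled by transcript length and library size), against 70.0 FPKM for the 80 of 85 nuclear-encoded subunits with at least 1 FPKM. The highest was mt-Co1, the catalytic core of complex IV, at 12100 ± 175 FPKM (SD, n = 3), followed by mt-Co3 at 9740 ± 420, mt-Co2 at 7340 ± 299, mt-Atp6 at 6750 ± 276 and mt-Cytb at 5980 ± 301. The lowest were mt-Nd4l at 709 ± 101 FPKM and mt-Atp8 at 755 ± 80.2 FPKM, whose SDs overlapped. Among nuclear-encoded subunits Atp5b, the catalytic beta subunit of ATP synthase, led with a mean of 543 FPKM in WT, and Cox8a (289), Atp5a1 (283), Ndufa4 (211) and Cox4i1 (208) followed.

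The 13 mitochondrial-encoded genes together took 5.68%, 5.93% and 5.66% of all counts in the 3 WT libraries, 7.29%, 6.36% and 6.94% in NS, and 6.32%, 5.76% and 5.98% in MSC-EVs. As a raw share of counts every NS library therefore lay above every WT library, and MSC-EVs overlapped WT. The nuclear-encoded subunits took 0.699%, 0.705% and 0.713% in WT, 0.680%, 0.739% and 0.696% in NS, and 0.626%, 0.630% and 0.647% in MSC-EVs. On this raw scale NS overlapped WT, and every MSC-EVs library was below every other library. The ratio of mitochondrial-encoded to nuclear-encoded CPM, which no library scaling can move, was 8.13, 8.42 and 7.94 in WT, 10.7, 8.61 and 9.98 in NS, and 10.1, 9.15 and 9.24 in MSC-EVs. The ratio was thus higher in all 6 rd10 libraries than in any WT library, while NS and MSC-EVs overlapped.

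**Figure D1:**
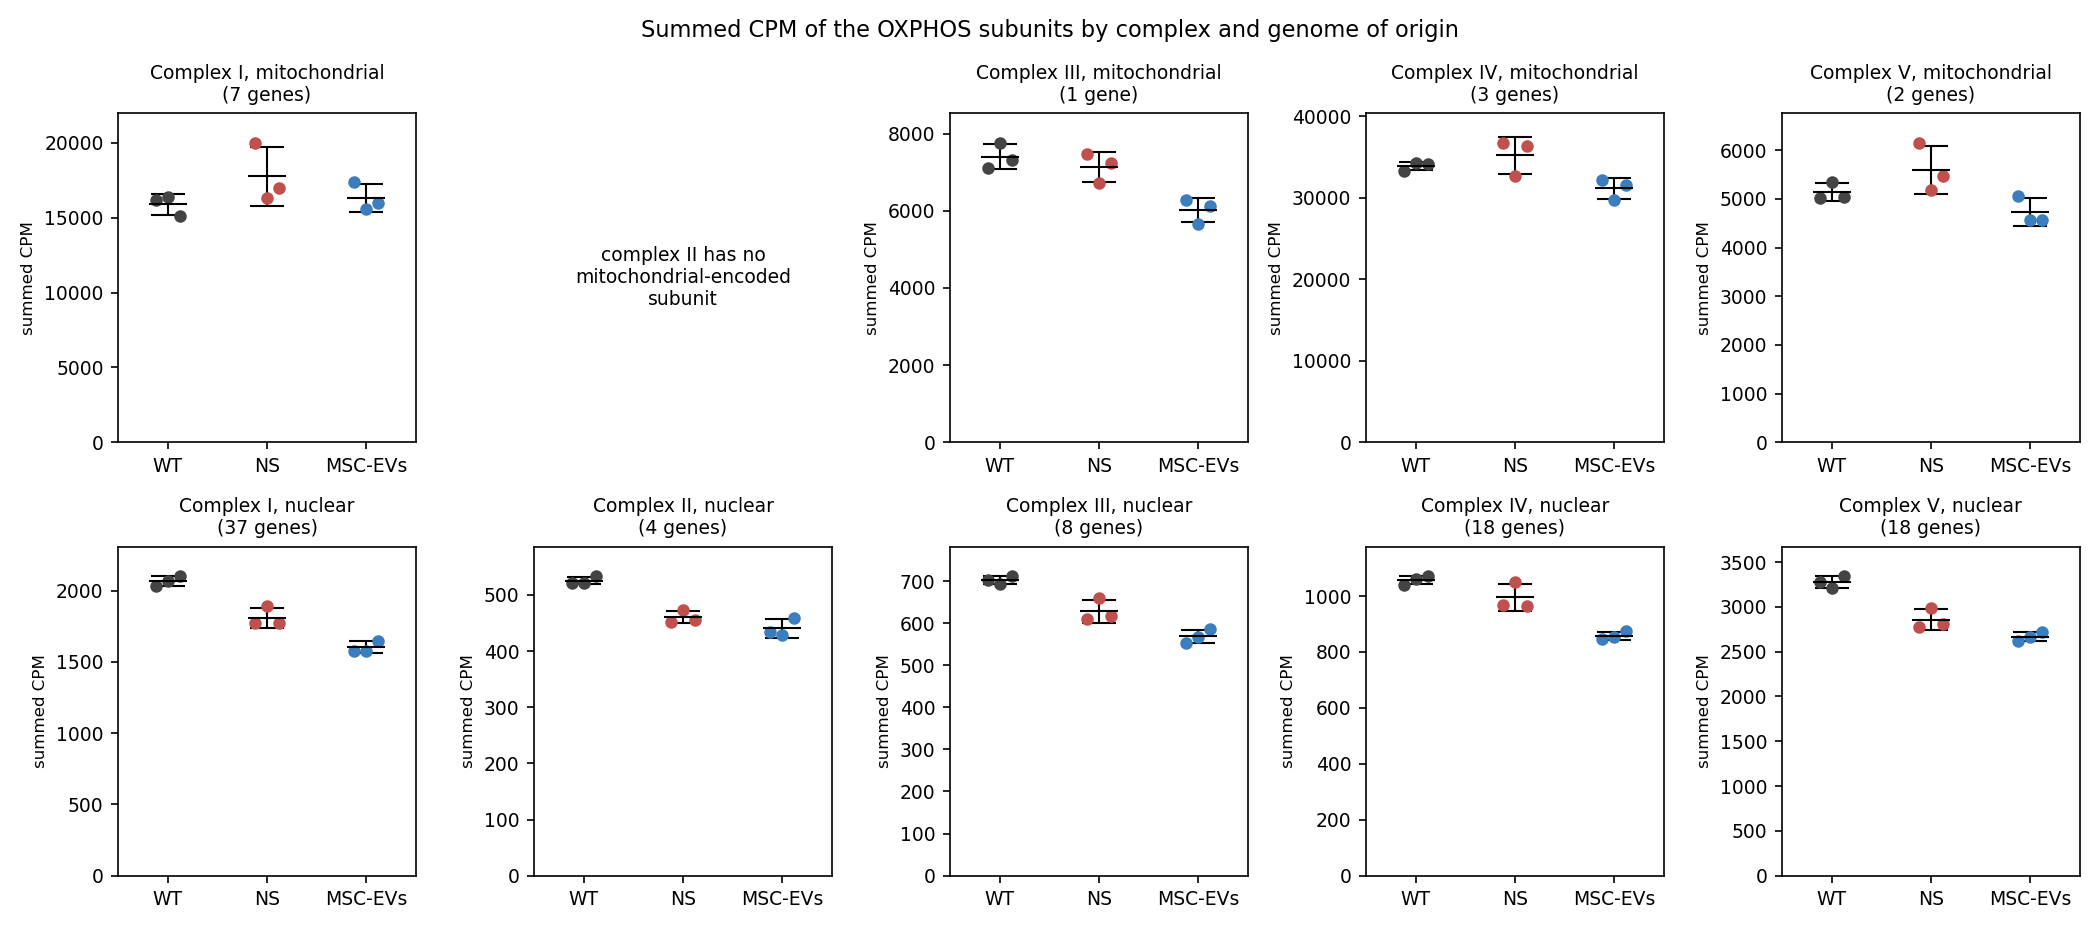
Summed TMM-scaled CPM of the subunits of each complex in each library (points), with the group mean and SD (bars, n = 3), mitochondrial-encoded genes in the upper panels and nuclear-encoded genes in the lower ones. On this scale every nuclear-encoded complex had its highest group mean in WT and its lowest in MSC-EVs, whereas with library size alone the NS and WT sums of nuclear-encoded subunits overlapped (0.680% to 0.739% against 0.699% to 0.713% of counts).

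The first comparison, NS-treated rd10 against WT, addressed what the degenerating retina had changed by P28. Of the 103 members tested, 32 were lower and 3 were higher in NS (edgeR quasi-likelihood test, adjusted p under 0.05). The share that was lower, 31.1%, was close to the 30.1% of all 14644 genes tested, and the share that was higher, 2.91%, stood against 31.2% of all genes. The other 7 members did not reach the count filter. Falls were small: Ndufaf2 was the only member whose log2 fold change was at or below -1, against 3.56% of all genes tested. In 38 members all 3 NS libraries lay below all 3 WT libraries and in 4 above them, compared with 33.5% and 33.6% of all genes.

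The genomes differed in how their members were placed. None of the 13 mitochondrial-encoded genes was lower and 1 was higher, 11 of the 13 had a positive log2 fold change, and their median was 0.13. Of the 80 nuclear-encoded subunits tested, 27 were lower (33.8%) and 2 were higher, 65 had a negative log2 fold change and their median was -0.08. The median of all genes tested was 0.005. These directions depended on how the libraries were scaled: with library size alone the median of all genes moved to 0.184, the mitochondrial-encoded median to 0.31 and the nuclear-encoded median to 0.10, and the counts became 10 members lower and 24 higher. Relative to the median of all genes, the mitochondrial-encoded median was 0.13 under either scaling and the nuclear-encoded median -0.09 under either. A change of library scaling moves all genes by about the same amount, so it could not move these differences. Without NS replicate 1 they were 0.01 and -0.1.

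**Figure D2:**
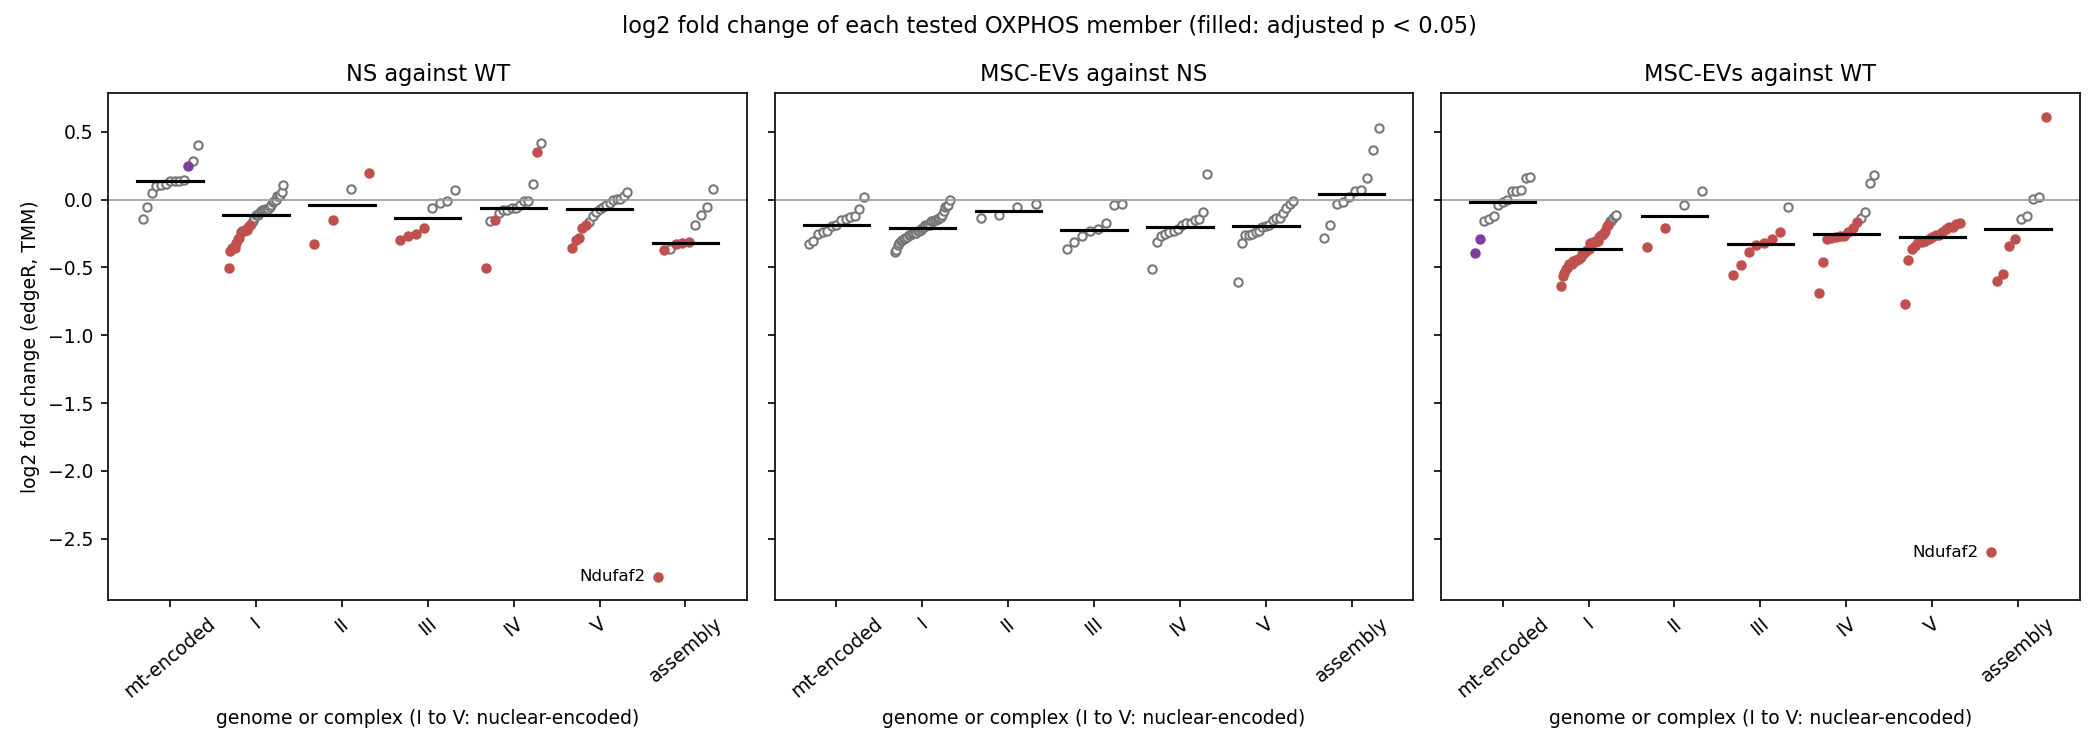
Log2 fold change of every tested member (points, TMM scaling), grouped by genome and complex for the 3 comparisons, where filled points passed an adjusted p of 0.05 and lines mark medians. Mitochondrial-encoded members sat around 0.13 in NS against WT, nuclear-encoded subunits around -0.08 (0.10 with library size alone), nearly all members below 0 in MSC-EVs against NS, and Ndufaf2 at -2.78 and -2.60 against WT stood far from the rest.

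Among the mitochondrial-encoded subunits, mt-Nd1 was the gene that passed the test. It encodes a core membrane subunit of complex I (chrM:2751-3707 in GRCm38, the build of all coordinates here). Its level was 4470, 4660 and 4360 CPM in WT and 5850, 5030 and 5200 CPM in NS. The groups did not overlap, and the log2 fold change was 0.25 ± 0.08 (SE, adjusted p = 0.0134). The call rested on NS replicate 1, without which the log2 fold change was 0.18 and the call was lost. The same library held the highest level of all 7 mitochondrial-encoded complex I genes, and the mitochondrial-encoded median without it was 0.02.

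The remaining mitochondrial-encoded complex I genes did not pass: mt-Nd2, mt-Nd3, mt-Nd4, mt-Nd4l, mt-Nd5 and mt-Nd6 had log2 fold changes between 0.05 and 0.28. In mt-Nd4l the values were 240, 250 and 192 CPM in WT and 359, 227 and 245 CPM in NS, so that a single NS library carried the difference (0.28 ± 0.22, adjusted p = 0.313). Mt-Cytb, the cytochrome b of complex III, was at 7120, 7760 and 7320 CPM in WT and 7470, 6720 and 7240 CPM in NS and did not separate the groups (-0.05, adjusted p = 0.55). The complex IV cores did not move together, with 0.11 for mt-Co1, 0.14 for mt-Co2 and -0.15 for mt-Co3, none past the test. In complex V, mt-Atp6 had a log2 fold change of 0.11 and mt-Atp8 one of 0.40 ± 0.32, the latter from 320 CPM in NS replicate 1 against 167 and 172 CPM in the other NS libraries. With library size alone mt-Nd2 (0.31), mt-Nd3 (0.32), mt-Nd4 (0.28), mt-Nd5 (0.31), mt-Co1 (0.28), mt-Co2 (0.31) and mt-Atp6 (0.29) were also called higher, and the estimates of mt-Cytb and mt-Co3 turned to 0.13 and 0.03 without passing.

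Some of these genes could not be counted apart from nuclear copies of mitochondrial DNA. The share of 50-base stretches that occur identically in another annotated gene was 100% for mt-Co2, 99.9% for mt-Co3, 99.5% for mt-Atp6, 98.8% for mt-Nd4l, 98% for mt-Nd3, 62.2% for mt-Nd4 and 51.1% for mt-Co1, and 0 for mt-Nd1, mt-Nd6, mt-Cytb and mt-Atp8. The annotation also places mt-Nd5 and mt-Nd6 on overlapping opposite strands, and mt-Atp8 with mt-Atp6, mt-Nd4l with mt-Nd4 and mt-Atp6 with mt-Co3 on overlapping stretches of the same strand. How the counting shared such reads is not given in the sources used here, so the levels of these genes are uncertain.

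In complex I, 14 of 37 nuclear-encoded subunits were lower in NS than in WT and none was higher, with a median log2 fold change of -0.11. The lower share, 37.8%, stood beside 30.1% of all genes tested, of which 31.2% were higher. With library size alone the nuclear-encoded subunits of all complexes together had 8 lower and 16 higher. The 7 core subunits that carry the flavin, the iron-sulphur clusters and the quinone site had 4 lower (57.1%), among them Ndufv1. The 30 accessory subunits had 10 lower (33.3%). Summed, complex I stood at 2060 ± 34.2 CPM in WT and 1810 ± 71.8 CPM in NS (SD, n = 3).

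Ndufa10, an accessory subunit of the complex I matrix arm (chr1:92439010-92473860, minus strand), had the largest fall in the complex. Its level was 126, 132 and 130 CPM in WT and 88.4, 98.2 and 88.7 CPM in NS. The groups lay well apart (-0.50 ± 0.06, adjusted p = 1.42e-05), and the call held with library size alone (-0.32). Ndufb11, an accessory subunit of the membrane arm, was at 78.9, 81.9 and 89.6 CPM in WT and 63, 66.8 and 63 CPM in NS (-0.38 ± 0.06, adjusted p = 0.000232). The span of the X-linked gene Ndufb11 (chrX:20615326-20617619) overlaps Rbm10 on the other strand. Because the strandedness of the libraries is not stated, reads of any shared stretch cannot be told apart. Sdha, Ndufs1, Uqcrh, Cox4i1, Cox6c, Atp5a1 and Ndufaf3, among others, also overlap the span of a gene on the other strand.

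Ndufv1, the subunit that binds NADH and flavin, was at 114, 113 and 124 CPM in WT and 86.1, 100 and 96 CPM in NS. Its fall of 0.32 ± 0.06 on the log2 scale passed the test (adjusted p = 0.00108) but not with library size alone (-0.14). Ndufs1, the largest iron-sulphur subunit, was at 128, 116 and 121 CPM in WT against 108, 118 and 107 CPM in NS, overlapping, and did not pass (-0.14, adjusted p = 0.0689). Ndufb2 and Ndufb8, which were chosen after their values were seen, fell by 0.36 and 0.35 on the log2 scale.

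Complex II, the only complex without a mitochondrial-encoded subunit, had 2 of 4 subunits lower and 1 higher (all genes tested: 30.1% and 31.2%). Sdha, its flavoprotein (chr13:74322254-74350280, minus strand), was at 334, 331 and 344 CPM in WT and 267, 267 and 273 CPM in NS. The fall was clear of the replicate spread (-0.32 ± 0.05, adjusted p = 0.000128), and the call held with library size alone (-0.15). Sdhb, the iron-sulphur subunit that Sdha binds, went the other way, from 51.2, 52.5 and 52.3 CPM in WT to 57.3, 64.3 and 57.6 CPM in NS (0.20 ± 0.06, adjusted p = 0.018). The Sdhb call was lost without WT replicate 1 (0.19) or without NS replicate 2 (0.14). Of the membrane anchors, Sdhc fell by 0.15 on the log2 scale (adjusted p = 0.0305), which became 0.03 with library size alone and was lost without WT replicate 2, WT replicate 3, NS replicate 1 or NS replicate 3 (-0.13 to -0.15), and Sdhd did not pass (0.08, adjusted p = 0.444), but was called higher with library size alone (0.26).

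In complex III, 4 of 8 nuclear-encoded subunits were lower and none was higher. Uqcrc1, a core protein of the matrix face, was at 206, 203 and 217 CPM in WT and 161, 179 and 170 CPM in NS (-0.30 ± 0.06, adjusted p = 0.0006). Uqcrh, the hinge protein at the cytochrome c1 docking site (chr4:116066965-116075071, minus strand), was at 78.1, 77.3 and 81.2 CPM in WT and 63.4, 67.3 and 68.6 CPM in NS (-0.25 ± 0.06, adjusted p = 0.00207). Uqcrq and Uqcrb also fell (-0.27 and -0.21). Uqcrfs1, the Rieske iron-sulphur protein, was at -0.01 (adjusted p = 0.897). The calls of Uqcrc1, Uqcrh and Uqcrq were lost with library size alone, where their log2 fold changes were -0.12, -0.07 and -0.09.

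Complex IV had the smallest share of falls, 2 of 14 tested (14.3%, against 30.1% of all genes tested), with 1 rise. Ndufa4, first described in complex I and now known as a subunit of cytochrome c oxidase (chr6:11900292-11907497, minus strand), was at 118, 125 and 127 CPM in WT and 79.7, 99.5 and 82.7 CPM in NS. This was the largest fall of any nuclear-encoded subunit (-0.51 ± 0.08, adjusted p = 0.00014), and the call held with library size alone (-0.33). Cox6c fell by 0.15 on the log2 scale (adjusted p = 0.0315), the sign turned to 0.03 with library size alone, and the call was lost without any 1 of the same 4 libraries as for Sdhc (-0.12 to -0.15). Cox4i1, the ubiquitous form of the regulatory subunit 4, was at 166, 166 and 170 CPM in WT and 161, 175 and 165 CPM in NS (-0.01, adjusted p = 0.897), but was called higher with library size alone (0.17).

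Cox4i2 (chr2:152754173-152765037), the hypoxia-associated isoform of subunit 4, passed the test upwards. Its level was 11.1, 10.4 and 11.6 CPM in WT and 14.0, 15.2 and 13.3 CPM in NS. All NS libraries lay above all WT libraries (0.35 ± 0.10, adjusted p = 0.00905), and the call held with library size alone (0.53). Per length, Cox4i2 remained the minor form of subunit 4, with mean levels of 14.1 FPKM in WT, 20.3 in NS and 17.8 in MSC-EVs, beside 208 FPKM for Cox4i1 in WT.

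The other isoform groups of complex IV were dominated by the forms found in most tissues. The heart and muscle forms Cox6a2, Cox7a1 and Cox8b were at or near the detection limit, with 0.0501 to 0.507 CPM for Cox6a2, 0.359 to 0.951 CPM for Cox7a1 and 0.0427 to 0.642 CPM for Cox8b over the 9 libraries. Cox8c had no count in any library, which allows at most 0.048 to 0.154 CPM per library when 3 counts are taken as the limit (counting error only). Cox6a1, Cox6b1, Cox7a2 and Cox8a, the ubiquitous forms, had log2 fold changes of -0.08, -0.04, -0.15 and -0.10 in NS against WT, and none passed. Cox6b2, known mainly from testis, was at 1.48, 2.24 and 1.40 CPM in WT and 2.26, 2.70 and 1.92 CPM in NS (0.42 ± 0.26, adjusted p = 0.182).

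In complex V, 5 of 17 tested subunits were lower (29.4%, against 30.1% of all genes tested) and none was higher. Of these 5, 3 belong to the catalytic F1 head (5 subunits). Atp5b (chr10:128083273-128090391), the most abundant nuclear-encoded member, was at 1130, 1090 and 1150 CPM in WT and 852, 916 and 870 CPM in NS. This fall held with library size alone (-0.36 ± 0.06, adjusted p = 0.000169, against -0.18 there). Atp5a1, its partner in the catalytic hexamer, was at 770, 734 and 764 CPM in WT and 624, 713 and 658 CPM in NS (-0.19 ± 0.06, adjusted p = 0.0176), a call that was lost without WT replicate 1 (-0.17), WT replicate 3 (-0.18) or NS replicate 1 (-0.15), and with library size alone (-0.01). Atp5j2, a small subunit of the Fo membrane domain, fell by 0.30 on the log2 scale (adjusted p = 0.00115), a call that was lost with library size alone (-0.12).

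The 3 genes for the proton-carrying c ring, Atp5g1, Atp5g2 and Atp5g3, encode the same mature protein behind different import sequences. In NS against WT only Atp5g1 among them passed (-0.21, adjusted p = 0.0116), with levels of 80.1, 83.1 and 84.2 CPM in WT and 76.0, 68.1 and 70.5 CPM in NS. Atp5g2 and Atp5g3 had log2 fold changes of 0.06 and 0.00. The call of Atp5g1 was lost with library size alone (-0.03), where Atp5g2 (0.24) and Atp5g3 (0.18) were called higher. Atp5g2 shared 38.3% and Atp5g1 10.2% of their 50-base stretches with other annotated genes.

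**Figure D3:**
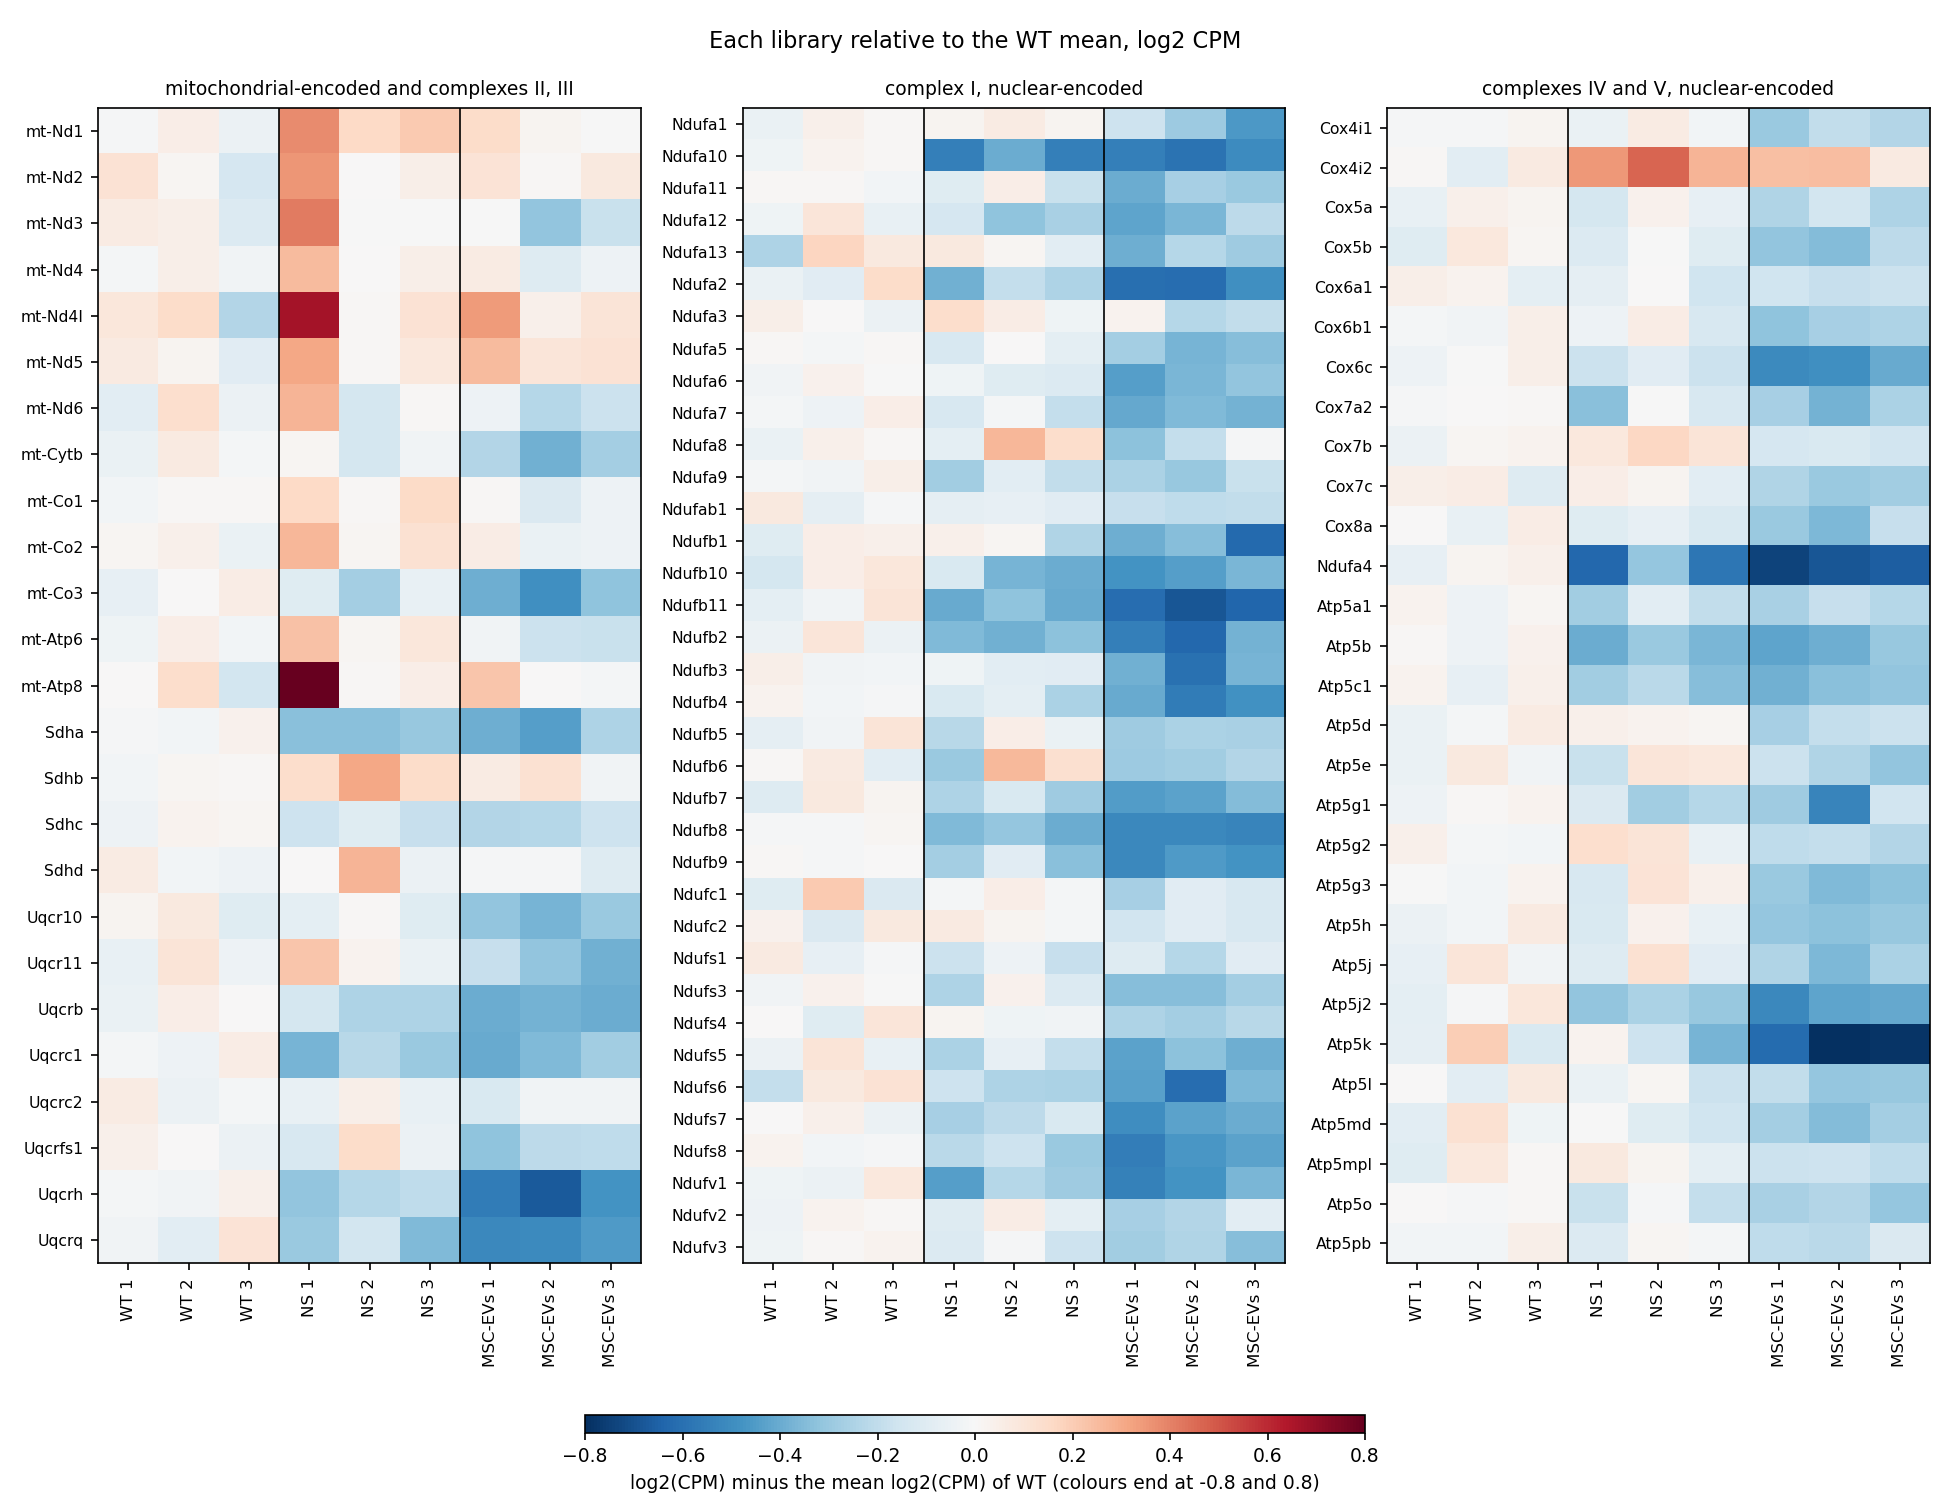
Log2 CPM in each library of the subunits shown, which have a mean over 5 CPM, minus its mean in WT (TMM scaling, colours end at -0.8 and 0.8), with lines between the 3 groups. Blue, a level below WT, covered most nuclear-encoded subunits in the 3 MSC-EVs libraries and fewer in NS, while red stood in NS replicate 1 for mitochondrial-encoded genes and in all NS libraries for Cox4i2; with library size alone the nuclear-encoded median in NS was above 0 (0.10).

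Among the 10 assembly and regulatory members, 5 were lower in NS than in WT and none was higher (median log2 fold change -0.32). Of all genes tested, 30.1% were lower and 31.2% higher. Ndufaf3 and Ndufaf5, assembly factors of complex I that were chosen after their values were seen, fell by 0.32 each on the log2 scale, and so did Ndufaf8 (adjusted p = 0.0423), whose call was lost with library size alone (-0.14) and without any library of the comparison but NS replicate 2 (-0.24 to -0.37). Cox7a2l, which helps to join complexes III and IV into supercomplexes (chr17:83501918-83517330, minus strand), was at 135, 137 and 135 CPM in WT and 96.8, 111 and 109 CPM in NS. It fell beyond the replicate spread (-0.37 ± 0.06, adjusted p = 0.00018), and the call held with library size alone (-0.19). Ndufa4l2, a hypoxia-inducible relative of Ndufa4, was at 1.76 to 2.16 CPM in NS against 2.45 to 2.55 in WT and did not pass (-0.37 ± 0.21, adjusted p = 0.15).

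Ndufaf2, a chaperone that binds a late assembly intermediate of complex I, changed more than any other member. Its level was 69.6, 86.5 and 84.3 CPM in WT, 13.1, 11.3 and 10.3 CPM in NS, and 9.66, 9.61 and 18.7 CPM in MSC-EVs. Every rd10 library was below every WT library, and the 2 rd10 groups overlapped. The log2 fold change was -2.78 ± 0.11 for NS against WT (adjusted p = 5.65e-09), -2.60 ± 0.30 for MSC-EVs against WT (adjusted p = 0.000904) and 0.16 ± 0.28 for MSC-EVs against NS (adjusted p = 0.803). Without MSC-EVs replicate 3, whose level was the highest of the rd10 libraries, the last 2 estimates were -3.05 and -0.27.

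The deposited FPKM gave a smaller difference. In FPKM the levels of Ndufaf2 were 34.2, 42.19 and 40.83 in WT, 12.92, 12.6 and 11.42 in NS, and 10.06, 10.52 and 15.26 in MSC-EVs. The log2 ratio of the NS to the WT mean was -1.67 in FPKM and -2.79 in CPM. The transcript length that count and FPKM together imply was 1877, 1911 and 1899 bases in WT, but 1049, 935 and 953 bases in NS and 997, 946 and 1263 bases in MSC-EVs. The implied length in NS was thus 0.52 of that in WT, whereas in 98 other members with enough signal this ratio lay between 0.93 and 1.08.

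In GRCm38 with the GENCODE M21 annotation Ndufaf2 spans chr13:108002715-108158623 on the minus strand and has 4 annotated transcripts. The longest, Ndufaf2-203, is a nonsense-mediated-decay transcript of 2404 exonic bases, of which 2223 are in no other transcript of the gene, and the protein-coding Ndufaf2-201 has 678. On the opposite strand exons of B230220B15Rik cover 1955 of the exonic bases of Ndufaf2-203. Because the strandedness is not stated, reads of the shared bases cannot be told apart, and which transcript lost reads in rd10 was not tested. B230220B15Rik was not analysed here.

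**Figure D4:**
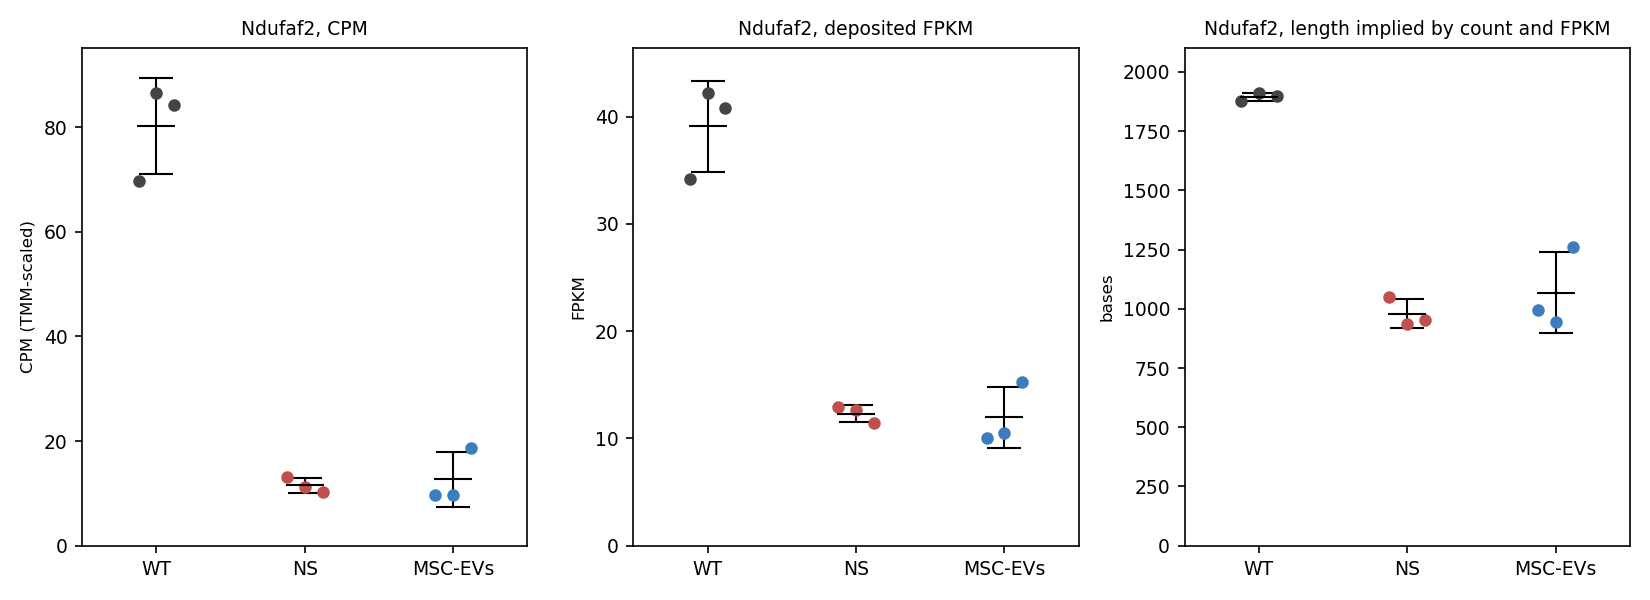
Ndufaf2 in each library as CPM, as FPKM and as the transcript length in bases implied by both, with points for libraries of the 3 groups. WT libraries sat at 69.6 to 86.5 CPM and 1877 to 1911 bases, all 6 rd10 libraries at 9.61 to 18.7 CPM and 935 to 1263 bases.

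Promoter sequences were examined because genes of both genomes are known to be coordinated by nuclear factors that bind subunit promoters, such as NRF1 and the ETS-family factor GABP. RefSeq windows (GRCm38.p6) were found for 78 of the 110 members, 69 of them nuclear-encoded subunits, and the 250 bases before each annotated start were searched on both strands. An NRF1 motif, the letters GCGC and TGCGC with any base between them, was present in 12 of 69 subunit windows (17.4%) and in 3.86% of the windows of all 27025 symbols. An ETS motif, CCGGAAG, was present in 11 (15.9%) against 7.05%. The subunit windows also had a higher median GC content, 56.4% against 52.0%.

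A YY1 motif (AANATGGCG) was found in 1 subunit window (1.45%, against 1.12% of all), an estrogen-related receptor motif (TCAAGGTCA) in 1 (1.45% against 0.366%), that of Atp5g3, and a CRX motif (TAATCC), named for a photoreceptor homeobox factor, in 5 (7.25% against 6.38%). Of the subunits with a window, 19 were lower in NS than in WT. The NRF1 letters were in 1 of these 19 and in 11 of the other 50, and the ETS letters in 2 and 9. Among the 19, Sdha is the 1 with the NRF1 letters and Uqcrh is 1 of the 2 with the ETS letters. Both are printed below and are not typical of the lower subunits. A match is a description of letters and does not show that a factor binds.

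The 3 sequences are given for Sdha, which had the largest fall in complex II, for Uqcrh, a complex III subunit that was lower in both rd10 groups than in WT, and for Ndufaf2, the assembly factor with the largest fall. They run 5′ to 3′ on the gene's strand in GRCm38.p6 from RefSeq, trimmed to the stretch next to the start that overlaps no exon, and capitals mark an NRF1 motif in Sdha and an ETS motif in Uqcrh, both of which match on the reverse strand, while the trimmed Ndufaf2 stretch holds neither. The stretches are chr13:74350281-74350308 for Sdha, chr4:116075072-116075268 for Uqcrh and chr13:108158626-108158730 for Ndufaf2, all on the minus strand.
Sdha: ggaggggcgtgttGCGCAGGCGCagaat
Uqcrh: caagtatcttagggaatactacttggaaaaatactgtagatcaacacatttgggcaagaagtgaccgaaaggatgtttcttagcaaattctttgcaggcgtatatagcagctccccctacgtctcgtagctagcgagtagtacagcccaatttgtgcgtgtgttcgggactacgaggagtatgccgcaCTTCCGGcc
Ndufaf2: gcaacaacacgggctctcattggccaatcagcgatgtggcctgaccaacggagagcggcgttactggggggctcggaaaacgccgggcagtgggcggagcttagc

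The nuclear regulators themselves were measured in the same fit, in which 30.1% of all genes were lower and 31.2% higher in NS than in WT. Of 10 genes of mitochondrial biogenesis, 6 were lower and none higher in NS than in WT (median -0.49), with a summed level of 1270 to 1310 CPM in WT, 576 to 660 in NS and 580 to 651 in MSC-EVs. Esrrb, a nuclear receptor abundant in rods, made up much of this sum in WT and of its fall in NS. It was at 720, 708 and 745 CPM in WT and 161, 212 and 107 CPM in NS (-2.18 ± 0.27, adjusted p = 0.00157). Ppargc1b, a coactivator of respiratory genes, was at 59.7, 57.7 and 56.4 CPM in WT and 24.7, 27.3 and 19.3 CPM in NS (-1.29 ± 0.11, adjusted p = 1.76e-06). Nrf1 fell by 0.57 ± 0.07 on the log2 scale (adjusted p = 3.43e-05), Gabpb1 by 0.59 and Ppargc1a by 0.40, while Gabpa did not pass (-0.12, adjusted p = 0.139).

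Other mitochondrial gene groups placed the subunits beside their neighbours. Of 12 genes of mitochondrial transcription and replication, 5 were lower in NS than in WT and none higher (median -0.13), among them Polrmt, the mitochondrial RNA polymerase (-0.65, adjusted p = 0.00014), and Polg2, the accessory subunit of the DNA polymerase (-1.45, adjusted p = 1.87e-07). Tfam, which packages mitochondrial DNA, did not pass (0.18, adjusted p = 0.119). Of 30 assembly factors of complexes III, IV and V, 12 were lower and none higher (median -0.15), and of 8 complex I assembly factors outside the naming rule 5 were lower (median -0.31). Of 78 mitochondrial ribosomal proteins 27 were lower and 2 higher (median -0.16). All these shares stood beside 30.1% lower and 31.2% higher among all genes.

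Genes of the tricarboxylic acid cycle and pyruvate dehydrogenase, 17 in all, had 6 lower and 2 higher (median -0.09). Of all genes tested, 30.1% were lower and 31.2% higher. Cs, citrate synthase, had a log2 fold change of 0.01 (adjusted p = 0.889), while Suclg2, the GTP-forming succinyl-CoA ligase subunit, rose by 1.22 on the log2 scale (adjusted p = 2.05e-06). Of 12 tested genes of cytochrome c, carriers and the mitochondrial membranes, 5 were lower and 2 higher (median -0.07), with Cycs, cytochrome c, at -0.22 (adjusted p = 0.0125) and Vdac1, the outer membrane channel, at 0.15 (adjusted p = 0.0346). Genes of the regulator and other mitochondrial lists were examined with TMM scaling only. Library size alone moved the median of all genes tested from 0.005 to 0.184. The 9 rod markers were all lower in NS than in WT (median -1.67), and the part of the rod markers' change in any of these member values was not tested.

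The second comparison, MSC-EVs-treated against NS-treated rd10, addressed what the vesicles changed. By the edgeR quasi-likelihood test no member was lower or higher at an adjusted p of 0.05, where 0.251% and 0.914% of all 14765 genes tested were, and the lowest adjusted p of a member was 0.0577 (Cox6c). At an unadjusted p under 0.05, 51 of 103 members were lower (49.5%) and 1 was higher, against 8.60% and 11.6% of all genes. After a correction for trends with transcript length and GC content, 30 members were lower and 1 higher at this limit of the same test. The log2 fold change was below 0 in 95 of 103 members and in 79 of 80 nuclear-encoded subunits (98.8%), against 50.4% of all genes. In 61 members (59.2%) all 3 MSC-EVs libraries lay below all 3 NS libraries, against 12.9% of all genes, and in 1 member they lay above, against 13.3%.

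The shift was shallow. The median log2 fold change was -0.20 for nuclear-encoded subunits, -0.19 for mitochondrial-encoded genes and -0.002 for all genes. Without NS replicate 1 the mitochondrial-encoded median was -0.08, with 9 genes below and 4 above 0, and the nuclear-encoded median was -0.22. With library size alone the nuclear-encoded median was -0.22 and the mitochondrial-encoded one -0.21. This scaling could hardly move them, because the TMM factors were 1.037 to 1.052 in NS and 1.029 to 1.038 in MSC-EVs. After the correction for transcript length and GC content the medians were -0.15 and -0.12. Summed on the TMM scale, MSC-EVs lay below NS without overlap in nuclear-encoded complexes I, III, IV and V and overlapped it in complex II. The counts of members called by other tests were 13 lower by the DESeq2 Wald test, 9 by the edgeR exact test, 20 when all 9 libraries shared a fit and 10 by limma on FPKM.

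**Figure D5:**
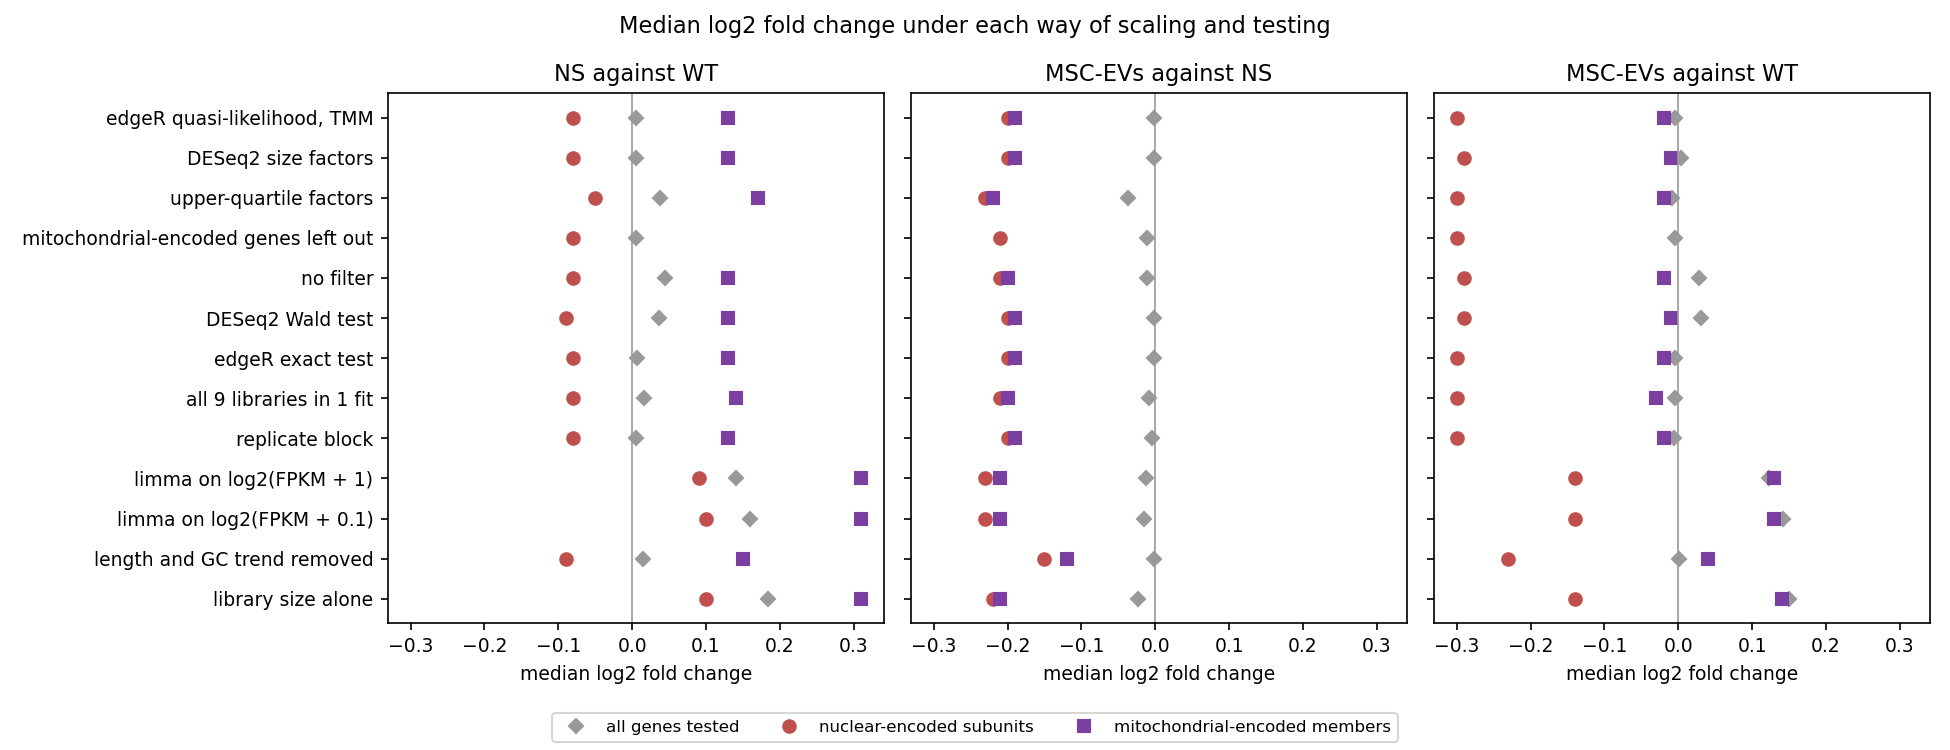
Median log2 fold change of nuclear-encoded subunits (circles), mitochondrial-encoded members (squares) and all genes tested (diamonds) under each way of scaling and testing, for the 3 comparisons. In MSC-EVs against NS both member medians lay below that of all genes in every setting, and in NS against WT the nuclear-encoded median was on either side of 0 (-0.08 with TMM, 0.10 with library size alone) but below that of all genes.

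By complex, 22 of 37 nuclear-encoded subunits of complex I were lower at an unadjusted p under 0.05, 0 of 4 in complex II, 6 of 8 in complex III, 7 of 14 in complex IV and 10 of 17 in complex V, and so were 5 of 13 mitochondrial-encoded genes and 1 of 10 assembly members. None of these passed the adjusted test, and 8.6% of all genes tested were lower at the unadjusted limit. Summed over complex I the levels were 1770, 1890 and 1770 CPM in NS and 1580, 1580 and 1650 CPM in MSC-EVs, a difference of -11.3% between the means. For the nuclear-encoded sums of the other complexes the difference was -13.7% in complex IV, -9.56% in complex III, -6.71% in complex V and -4.29% in complex II, the last with overlap.

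Cox6c, a small transmembrane subunit of cytochrome c oxidase, had the lowest adjusted p of the members. It was at 81.0, 85.7 and 81.2 CPM in NS and 64.2, 65.0 and 69.0 CPM in MSC-EVs, with no overlap (-0.32 ± 0.07, adjusted p = 0.0577, and 0.0469 with library size alone). Atp5g3, a c-ring gene, was at 124, 146 and 139 CPM in NS and 110, 106 and 108 CPM in MSC-EVs (-0.32 ± 0.07, adjusted p = 0.0622). Atp5k, the e subunit of ATP synthase that lies at the dimer interface (chr5:108433244-108434448, minus strand), had the most negative estimate. Its values were 14.9, 13 and 11.3 CPM in NS and 9.54, 7.77 and 8.46 CPM in MSC-EVs (-0.60 ± 0.14, adjusted p = 0.0697).

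Uqcrh was at 63.4, 67.3 and 68.6 CPM in NS and 53.5, 49.6 and 56.6 CPM in MSC-EVs (-0.31 ± 0.08, adjusted p = 0.0741). Cox4i1 was at 161, 175 and 165 CPM in NS and 136, 146 and 142 CPM in MSC-EVs (-0.23 ± 0.06, adjusted p = 0.0908). Both separated the groups in these libraries without passing the adjusted test. Other named subunits had estimates nearer 0. Atp5b was at 852, 916 and 870 CPM in NS and 838, 858 and 911 CPM in MSC-EVs (-0.01 ± 0.06, adjusted p = 0.947). Atp5a1 was at -0.03, Sdha at -0.03, Ndufs1 at 0.00, Uqcrc1 at -0.04 and Ndufa10 at -0.04. The transcript length implied by count and FPKM in NS was 1648 to 2896 bases in these genes. In Cox6c, Atp5g3, Atp5k, Uqcrh and Cox4i1 it was 371 to 745 bases. Other members were placed otherwise. Uqcrfs1, at 1363 bases, had a log2 ratio of mean CPM of -0.24, and Cox6a1, at 571 bases, one of -0.1. Whether length bears on these differences was not tested.

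The mitochondrial-encoded genes had a median estimate of -0.19, near the -0.2 of nuclear-encoded subunits, but separated the groups less often. Every MSC-EVs library lay below every NS library in 5 of 13 of these genes, against 54 of 80 nuclear-encoded subunits. The mitochondrial-encoded sums of the groups overlapped, whereas the nuclear-encoded sums did not. Without NS replicate 1 the mitochondrial-encoded median was -0.08 and the nuclear-encoded one -0.22. Mt-Cytb and mt-Co3 had the lowest adjusted p of the 13. Mt-Cytb was at 7470, 6720 and 7240 CPM in NS and 6280, 5670 and 6120 CPM in MSC-EVs (-0.24 ± 0.07, adjusted p = 0.114), and mt-Co3 at 7700, 6830 and 7900 CPM in NS and 6280, 5870 and 6600 CPM in MSC-EVs (-0.25 ± 0.08, adjusted p = 0.128). Both separated the groups without passing. For mt-Co1 the groups met at the edge, with 22500, 20300 and 22400 CPM in NS and 20300, 18600 and 19600 CPM in MSC-EVs (-0.15, adjusted p = 0.293). Mt-Nd5 was the gene whose estimate was above 0 (0.02, adjusted p = 0.921).

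Of the 10 assembly members, 4 had an estimate below 0 and 6 above 0, with a median of 0.04. Ndufaf6, an assembly factor needed for mt-Nd1 to be built in (chr4:11051045-11076205, minus strand), was the member that was higher at an unadjusted p under 0.05. Its level was 3.68, 4.71 and 4.26 CPM in NS and 5.60, 6.70 and 5.85 CPM in MSC-EVs (0.53 ± 0.17, adjusted p = 0.13). The groups did not overlap, but at these counts the gene is among the lowest members.

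Cell-type markers gave values in the same libraries. Their counts at an unadjusted p under 0.05 hold both directions. Among all genes, 8.6% were lower and 11.6% higher at this limit. Cone markers summed to 1110 to 1210 CPM in NS and 895 to 1160 CPM in MSC-EVs, with 5 of 8 past an unadjusted p of 0.05 and a median log2 fold change of -0.28. Müller glia markers had 3 of 5 past it and a median of -0.17, and their sums, 3490 to 4400 against 2860 to 3130 CPM, did not overlap. Rod markers summed to 7320 to 9730 and 7290 to 10500 CPM (median 0.01). Of 7 bipolar markers, 4 passed an unadjusted p of 0.05 and 1, Pcp2, was lower at an adjusted p of 0.05 (-0.41 ± 0.08, adjusted p = 0.0451), with a median of -0.04 and sums of 1420 to 1650 against 1400 to 1660 CPM. Gliosis markers had 1 of 3 past an unadjusted p of 0.05 and a median of 0.48, and microglia markers 0 of 7 and a median of 0.02. The part of these cell types in the lower values of the subunits was not tested.

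Other mitochondrial gene lists had medians nearer 0 than the subunits, a difference that was not tested. Their counts at an unadjusted p under 0.05 hold both directions, beside 8.6% lower and 11.6% higher among all genes. The median was -0.08 for the 78 mitochondrial ribosomal proteins (9 at an unadjusted p under 0.05), -0.08 for the assembly factors of complexes III, IV and V (6 of 30), -0.09 for the tricarboxylic acid cycle and pyruvate dehydrogenase (3 of 17), -0.08 for cytochrome c, carriers and membranes (3 of 12), -0.10 for mitochondrial transcription and replication (1 of 12), -0.05 for the other complex I assembly factors (0 of 8) and 0.05 for the biogenesis regulators. Pprc1, a coactivator related to Ppargc1a, was the gene among these lists that passed the adjusted test. It was at 17.2, 11.7 and 15.6 CPM in NS and 25.6, 22.0 and 24.9 CPM in MSC-EVs (0.71 ± 0.14, adjusted p = 0.0497).

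The third comparison, MSC-EVs-treated rd10 against WT, shares its libraries with the other 2 and is given for its own values. Of 103 members 75 were lower (72.8%) and 1 was higher, against 27.2% and 28.3% of all 14623 genes tested. Of the 80 nuclear-encoded subunits 68 were lower (85.0%), with a median log2 fold change of -0.30, where the median of all genes was -0.004. With library size alone 37 members were lower and 6 higher, the nuclear-encoded median was -0.14 and that of all genes 0.15, so the lower position of nuclear-encoded subunits kept its sign. The mitochondrial-encoded median was -0.02, which turned to 0.14 with library size alone.

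By complex the lower subunits numbered 32 of 37 in complex I, 2 of 4 in complex II, 7 of 8 in complex III, 10 of 14 in complex IV and 17 of 17 in complex V. Among all genes tested, 27.2% were lower. The nuclear-encoded subunits that did not pass were Ndufa3, Ndufa8, Ndufc1, Ndufc2, Ndufs1, Sdhb, Sdhd, Uqcrc2, Cox4i2, Cox6b2, Cox7a1 and Cox7b. Summed, nuclear-encoded complex I stood at 1600 ± 41.1 CPM in MSC-EVs against 2060 ± 34.2 in WT, a difference of -22.3%, complex III at 568 ± 15.9 against 702 ± 9.49, complex IV at 857 ± 15.3 against 1060 ± 13.4 and complex V at 2660 ± 52.4 against 3280 ± 64.2 (SD, n = 3). The 3 MSC-EVs libraries lay below the 3 WT libraries in each.

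The largest falls were those of Atp5k (-0.77 ± 0.13, adjusted p = 0.000665), Ndufa4 (-0.69 ± 0.06, adjusted p = 7.45e-06) and Ndufb11 (-0.64 ± 0.06, adjusted p = 3.02e-05) among the subunits. Ndufa4 was at 73.7, 76.8 and 78.2 CPM in MSC-EVs, Ndufb11 at 54.6, 51.8 and 53.8 CPM and Atp5k at 9.54, 7.77 and 8.46 CPM. Atp5k had been at 13.9, 16.7 and 13.4 CPM in WT. In complex III, Uqcrh had the largest fall (-0.56 ± 0.06, adjusted p = 6.86e-05), and in complex II Sdha was lower (-0.35 ± 0.06, adjusted p = 0.000769) while Sdhb did not pass (0.06, adjusted p = 0.441). With library size alone the falls of Atp5k, Ndufa4, Ndufb11, Uqcrh and Sdha passed (-0.61, -0.53, -0.48, -0.40 and -0.20), and Sdhb was called higher (0.22).

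The falls also included a c-ring gene, the main form of Cox4 and the Rieske protein. Atp5g3 was at 135, 133 and 138 CPM in WT and 110, 106 and 108 CPM in MSC-EVs (-0.31 ± 0.05, adjusted p = 0.000476), and Cox4i1 fell by 0.24 on the log2 scale (adjusted p = 0.00312). Cox4i2 was at 13, 13.1 and 11.6 CPM in MSC-EVs, meeting the 10.4 to 11.6 CPM of WT at its lowest library (0.19, adjusted p = 0.164). Uqcrfs1 was at 96.8, 94.3 and 91.1 CPM in WT and 75.1, 81.5 and 81.7 CPM in MSC-EVs (-0.24, adjusted p = 0.00689). With library size alone the fall of Atp5g3 passed (-0.16), those of Cox4i1 and Uqcrfs1 did not (-0.08 each), and Cox4i2 was called higher (0.34).

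Of the mitochondrial-encoded genes mt-Cytb (-0.29 ± 0.07, adjusted p = 0.00394) and mt-Co3 (-0.39 ± 0.07, adjusted p = 0.000734) fell, and the other 11 did not pass. Their levels in MSC-EVs were 6280, 5670 and 6120 CPM for mt-Cytb, against 7120 to 7760 in WT, and 6280, 5870 and 6600 CPM for mt-Co3, against 7880 to 8610. Neither gene's groups overlapped. Under scaling by library size alone mt-Co3 still passed (-0.24), the call of mt-Cytb was lost (-0.14), and mt-Nd1 (0.22), mt-Nd2 (0.22) and mt-Nd5 (0.32) were called higher. Ndufaf6 was the member that rose (0.61 ± 0.16, adjusted p = 0.00963), from 4.49, 3.81 and 3.60 CPM in WT to 5.60, 6.70 and 5.85 CPM in MSC-EVs. Cox7a2l was lower (-0.55 ± 0.05, adjusted p = 1.74e-05), as were Ndufaf2, Ndufaf3, Ndufaf5 and Ndufaf8.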

How the data were processed

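RNA-seq of P28 mouse retina was deposited as a table of genes with columns for 9 libraries, 3 each for WT, NS and MSC-EVs. mRNA was enriched with oligo(dT) beads and primed at random; strandedness is not stated. The authors deposited estimated counts per gene, not scaled to library size, with decimals in 9.16% to 11.7% of genes. The authors also deposited FPKM, scaled to transcript length and library size. The submitters' processing notes name fastp, Bowtie2, HISAT2, StringTie 1.3.1 and RSEM without roles. The genome build is not given in the sources used here, and coordinates come from GRCm38 with GENCODE M21, in which 110 of 110 members were found.

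Expected counts were rounded to whole numbers, although plain counts had been assumed when the design was set. For each pair of groups edgeR 4.0.16 (R 4.3.3) filtered low genes (filterByExpr), scaled by TMM and ran the robust quasi-likelihood test on all genes, with Benjamini-Hochberg adjustment over all genes tested (14644, 14765 and 14623) and a threshold of 0.05. An unadjusted p in the text is of the same test. CPM were TMM-scaled over all 9 libraries. Labels do not say that libraries of a group came from separate animals, so p-values measure the spread between these libraries, which may be technical. All replicate libraries differed by more than sampling noise. Levels were compared between genes only in FPKM. The implied length is the count divided by FPKM and library total, for members of at least 5 FPKM.

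Members, gene lists and markers were chosen with earlier results of these data known. Genes named were the 13 mitochondrial-encoded members, the Sdh genes, catalytic subunits, isoform groups, and for each comparison and class the 2 largest rises and falls past the threshold. Alternatives were DESeq2 1.42.0 size factors and Wald test, upper-quartile factors, no filter, the edgeR exact test, a fit of all 9 libraries, leaving out mitochondrial-encoded genes, a replicate block, leaving out each library, and limma 3.58.1 on log2(FPKM + 1) and log2(FPKM + 0.1) for genes with a mean of at least 0.5 FPKM. Library size alone and a trend correction for length and GC content were added after the data had been seen. The scripts were tested on simulated data. Values of some single genes are not reported here, and such genes were left out of the rod marker list and the heat map.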

Additional observations from a re-analysis of the deposited data

How the results depend on the processing

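The counts and medians that moved are given first. In NS against WT, limma on log2(FPKM + 1) gave 10 members lower and 28 higher with medians of 0.31 (mitochondrial-encoded) and 0.09 (nuclear-encoded), limma on log2(FPKM + 0.1) gave 10, 29, 0.31 and 0.10, library size alone gave 10, 24, 0.31 and 0.10, and the length and GC correction gave 5 higher. Cox4i1 turned to 0.17 and Cox6c to 0.03 under both limma settings and library size alone, and Sdhc to 0.03 under library size alone. Without single replicates the mitochondrial-encoded median ran from 0.02 (without NS replicate 1) to 0.19 and the members lower from 22 to 38.

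In MSC-EVs against NS, members lower numbered 1 with upper-quartile factors, 1 with no filter, 1 with library size alone, 13 by the DESeq2 Wald test, 9 by the exact test, 20 with all 9 libraries in 1 fit, 10 by limma at either pseudocount and 0 to 1 without single replicates (1 without NS replicate 1), and the nuclear-encoded median was -0.15 after the length and GC correction. Over all genes, 37 lower and 135 higher calls became 0 when either NS replicate 3 or MSC-EVs replicate 1 was omitted. In MSC-EVs against WT, members higher numbered 2 by the DESeq2 Wald test and 3 after the length and GC correction (nuclear-encoded median -0.23). Limma on log2(FPKM + 1) gave 41 lower, 7 higher and medians of 0.13 and -0.14, limma on log2(FPKM + 0.1) 41, 8, 0.13 and -0.14, and library size alone 37, 6, 0.14 and -0.14. Mt-Co2 turned to 0.15 under both limma settings. Without single replicates the members lower ran from 63 to 74. Beyond the change of scale or unit itself, the cause of these changes was not tested.

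With the replicate number as a block, 31 members were lower and 3 higher in NS against WT, 1 was lower in MSC-EVs against NS, and 73 were lower and 1 higher in MSC-EVs against WT. Same-numbered libraries' deviations correlated at -0.07 to 0.23, and at 0.06, 0.23 and 0.21 between NS and MSC-EVs. The labels name no pairs, and so few small values cannot decide whether libraries were paired. Over all genes in MSC-EVs against NS, the block gave 111 lower and 292 higher, against 37 and 135 without it. Of the values of single members under these alternatives, 765, 829 and 800 kept their side of the threshold, with the sign unchanged where they passed it, in NS against WT, MSC-EVs against NS and MSC-EVs against WT, 59, 0 and 45 lost a call in the same direction, and 38, 37 and 22 gained one. With mitochondrial-encoded genes left out no mitochondrial-encoded median exists.

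With 3 libraries a group and a common biological coefficient of variation of 7.97% (NS against WT), 12.5% (MSC-EVs against NS) and 10.8% (MSC-EVs against WT), the precision differed between comparisons. Total counts limited the lowest members, of which Cox6a2, Cox7b2, Cox8b, Cox8c, the second Atp5o identifier, Cox5b-ps and Ndufb11b were not tested. The WT libraries differ from rd10 in supplier and injection as well as genotype.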
